A study of Mus musculus with 24 samples.

Results

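The subunits of oxidative phosphorylation and a few of their assembly factors were followed in the brains of mice on 4 diets. The members are genes whose symbol begins with Nduf, Uqcr, Cox4, Cox5, Cox6, Cox7, Cox8 or Atp5, or is Sdha, Sdhb, Sdhc, Sdhd or Cyc1, and each is read from 1 probe set, the brightest on average over the 24 arrays among those annotated to that gene alone. This rule found 91 of 18193 genes: 35 in complex I, 4 in complex II, 9 in complex III, 17 in complex IV, 17 in complex V, and 9 assembly factors and regulators that were kept apart. Female NMR-1 mice, which the submitters call genetically identical, began at an age of 8 weeks and were fed for 2 weeks with either the pellets they had been raised on (Pellet), the vegetable, fruit and yogurt diet of an ape facility (Chimpanzee), cooked meals of an institute cafeteria (HumanCafe) or McDonald's fast food (FastFood). RNA of the right cerebral hemisphere was handled in 2 batches, with 3 mice of each diet in each batch and 1 Affymetrix array a mouse. The arrays of a diet are therefore separate animals, 6 in number. A chimpanzee diet here is food given to mice, not a sample of a chimpanzee.

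Oxidative phosphorylation takes place in the inner membrane of mitochondria. Complex I takes electrons from NADH and complex II from succinate, complex III passes them to cytochrome c, and complex IV hands them to oxygen. Complexes I, III and IV pump protons as they work, and complex V, the ATP synthase, lets the protons back to make ATP. Neurons depend on this pathway to restore ion gradients after firing. Most subunits are encoded in the nucleus, and some of complex IV exist as isoforms of heart and skeletal muscle (Cox6a2, Cox7a1, Cox8b), of testis (Cox6b2, Cox7b2, Cox8c) or of lung (Cox4i2) beside the forms found in most tissues. Subunits encoded by the mitochondrial genome are outside the rule.

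Of the 91 members, 86 reached the filter, a mean log2 of 4.07 (the median over all probe sets), and were tested. The other 5 were Cox4i2 (mean log2 level of 3.70), Cox7a1 (3.94), Cox7b2 (2.95), Cox7c (3.97) and Ndufb4 (3.19). Cox7c and Ndufb4 are subunits found in most tissues. Probe sets shared by Ndufb4 with its close copies Ndufb4b and Ndufb4c had means of 9.57 and 9.67, and were set aside with 8 other probe sets that match a family gene together with another gene. Among the 91 probe sets, 12 end in _s_at and 7 in _x_at, which marks possible matches to other transcripts. The members lie on 19 chromosomes, with 9 at most on 1 of them (chromosome 7). Ndufa4 was counted with complex IV, of which its protein is a subunit, whereas Ndufa4l2, its paralog, stayed in complex I by its symbol.

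Promoters are shown for some of the members with the largest and smallest batch differences, described further on, because many respiratory genes are known targets of the nuclear respiratory factor NRF1 and of the ETS family factor GABPA. RefSeq's table of promoters (GRCm38.p6, from 250 bases before to 50 after each start) held 74 of the 91 members, 5 of them with several starts, of which the first listed was read. On either strand, the NRF1 core, a palindrome seen in capitals in Atp5g2 below, was present in 6 of the 74 (8.1%) and in 0.977% of the promoters of all 27025 genes. The ETS core CCGGAAG was in 18 members (24.3%, against 9.12% of all genes), the YY1 core AAGATGG in 10 (13.5%, against 6.48%) and the TATA box TATAAA in 8 (10.8%, against 14.2%). None of the 4 motifs contains another. The median GC content was 59.0% in members and 52.7% in all genes. A match is a run of letters, not a measured site. Printed here are the 250 bases before the start of Cox6a1 (chr5:115348959-115349208, minus strand), Atp5g2 (chr15:102671048-102671297, minus strand), Sdhd (chr9:50603850-50604099, minus strand) and Sdha (chr13:74350241-74350490, minus strand), with matches in capitals.
Cox6a1: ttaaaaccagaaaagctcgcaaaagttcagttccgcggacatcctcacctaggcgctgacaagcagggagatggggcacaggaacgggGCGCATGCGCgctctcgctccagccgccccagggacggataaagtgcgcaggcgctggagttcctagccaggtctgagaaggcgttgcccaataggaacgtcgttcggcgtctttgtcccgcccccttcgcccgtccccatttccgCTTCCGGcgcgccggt
Atp5g2: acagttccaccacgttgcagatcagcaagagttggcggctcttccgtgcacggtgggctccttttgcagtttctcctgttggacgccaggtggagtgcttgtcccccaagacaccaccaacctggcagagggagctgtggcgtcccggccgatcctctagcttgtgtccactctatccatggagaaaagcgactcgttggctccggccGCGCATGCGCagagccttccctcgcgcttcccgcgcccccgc
Sdhd: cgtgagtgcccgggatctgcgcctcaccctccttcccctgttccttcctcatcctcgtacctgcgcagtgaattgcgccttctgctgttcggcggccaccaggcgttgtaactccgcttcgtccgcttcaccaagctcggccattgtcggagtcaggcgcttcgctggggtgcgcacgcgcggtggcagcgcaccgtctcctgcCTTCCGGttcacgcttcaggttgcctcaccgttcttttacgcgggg
Sdha: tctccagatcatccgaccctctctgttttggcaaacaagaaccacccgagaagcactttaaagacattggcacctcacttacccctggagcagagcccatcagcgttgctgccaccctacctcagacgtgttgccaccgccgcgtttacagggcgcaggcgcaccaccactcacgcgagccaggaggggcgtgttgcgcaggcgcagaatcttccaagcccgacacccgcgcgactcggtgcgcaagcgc
Cox6a1, with an NRF1 match that begins 162 bases and an ETS match that begins 16 bases before the start, had the largest batch difference of complex IV in the deposited values of the 3 diets without pellets, and Atp5g2, with an NRF1 match 42 bases before its start, the lowest of complex V. In complex II, Sdhd has an ETS match 46 bases before the start and Sdha none of the 4 motifs in these 250 bases, and on the same arrays they were the lowest and the highest there. After quantile normalization Ndufa4 (0.06) was the highest of complex IV, while Atp5g2, Sdhd and Sdha kept their places. Atp5a1, Ndufs1, Uqcrc2, Cox6a2, Ndufa4l2 and Uqcrq, the other extremes of complexes I, III, IV and V as deposited, had no promoter among those read. A link between motifs and batch differences was not tested.

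In the brain, 0 of the 86 members passed the test for a difference among the 4 diets, and 0 passed in any of the comparisons of 2 diets or of both human diets with the chimpanzee diet (limma, Benjamini-Hochberg adjusted p of 0.05 over 13838 features). Over all features the test of 4 diets called 0.0434%. The comparisons called 0% (chimpanzee against cafeteria), 0% (chimpanzee against fast food), 0% (cafeteria against fast food), 0.00723% (pellet against chimpanzee), 0% (pellet against cafeteria), 0.0361% (pellet against fast food) and 0% (human diets against chimpanzee). At an unadjusted p under 0.05 the counts of members were 0 for the 4 diets and 0 for each comparison except pellet against fast food, with 1. That gene is Ndufaf1, an assembly factor of complex I, named after its values were seen: it read 5.77 ± 0.98 on pellets and 6.48 ± 0.18 on fast food (log2 level, SD, n = 6, adjusted p = 0.225), with 1 pellet array at 3.92.

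The levels of core subunits on the 4 diets overlapped throughout. Ndufv1, the subunit of complex I that binds NADH, had a lowest, median and highest log2 level of 9.09, 9.67 and 9.84 on the chimpanzee diet, 9.14, 9.49 and 9.74 with cafeteria meals, 9.07, 9.69 and 9.80 on fast food and 8.58, 9.50 and 9.83 on pellets. Sdha, the flavoprotein of succinate dehydrogenase, ran from 9.41 to 10.30 on the chimpanzee diet, from 9.41 to 10.44 with cafeteria meals, from 9.36 to 10.50 on fast food and from 8.90 to 10.31 on pellets. Cox4i1, the most widespread form of a regulatory subunit of complex IV, had means of 11.57 ± 0.52 (chimpanzee diet), 11.51 ± 0.37 (cafeteria), 11.59 ± 0.45 (fast food) and 11.35 ± 0.58 (pellets; SD, n = 6). Those of Atp5b, the catalytic subunit of the ATP synthase, were 11.72 ± 0.50, 11.68 ± 0.41, 11.72 ± 0.49 and 11.49 ± 0.59. In each of these genes the lowest pellet array lay below all 18 arrays of the other diets. Uqcrc1, a core protein of complex III, had means of 9.54 ± 0.32, 9.56 ± 0.27, 9.60 ± 0.34 and 9.38 ± 0.47 in the same order.

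**Figure D1:**
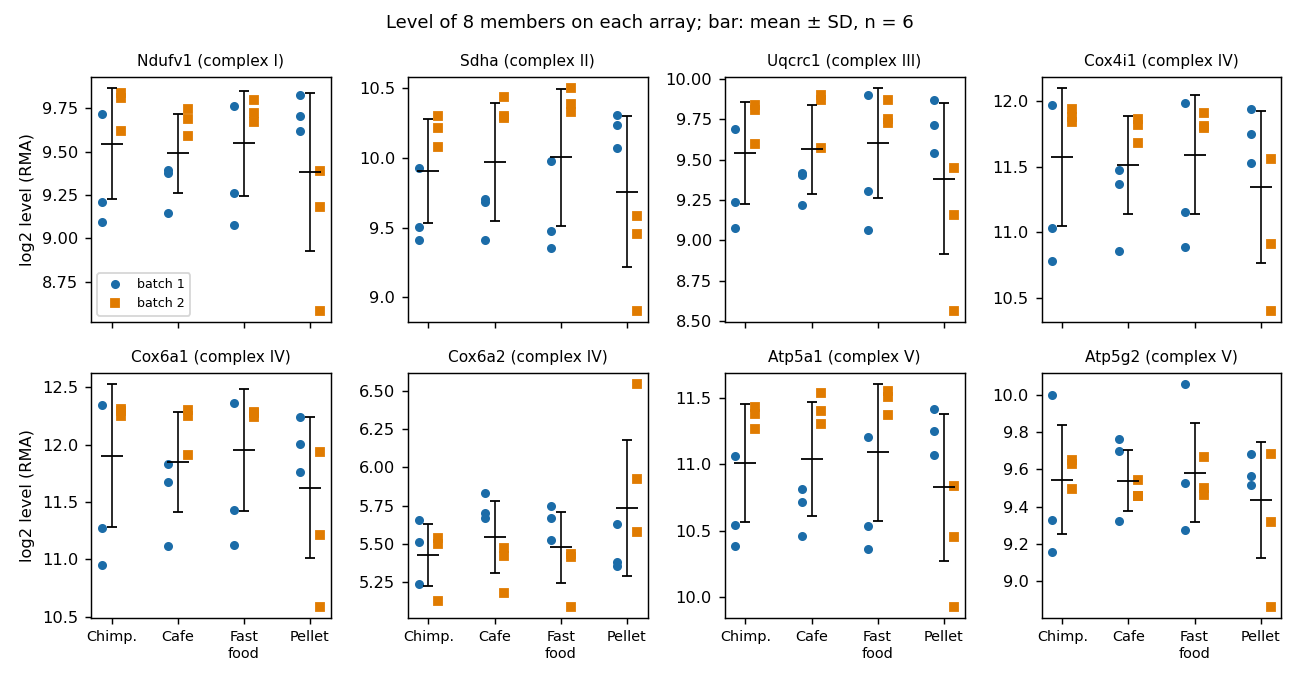
Log2 level (vertical axis) of 8 members on each of the 24 arrays, by diet (horizontal axis), with circles for batch 1, squares for batch 2 and bars for the mean ± SD of 6 arrays. The diets overlap in every panel, and in these deposited values the median of batch 2 lies above that of batch 1 on the 3 diets for Sdha (10.30 and 9.50) and Atp5a1 (11.41 and 10.54), which keep this sign after quantile normalization, whereas Ndufv1, Uqcrc1 and Cox4i1 do not.

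When both human diets were set against the chimpanzee diet, the members' log2 differences ranged from -0.12 to 0.08, with a median of -0.02 and 28 of 86 above 0, beside a median of 0.01 over all features. The medians of complexes I to V were -0.02, 0.00, 0.01, -0.01 and -0.02. The 95% intervals had a median distance from centre to bound of 0.367, and all 86 lay within a log2 difference of 1 in either direction. After the arrays were quantile normalized once more, the median distance from centre to bound fell to 0.139 and the range of differences was -0.12 to 0.07, and again 0 members passed. Among the members with the smallest p over 4 diets in each complex, Cox6a2 had an adjusted p of 0.726, Uqcrc2, a core protein of complex III, of 0.747, Ndufa4l2 of 0.756, Sdhc, a membrane anchor of complex II, of 0.769, and Atp5pb, of the stalk of the ATP synthase, of 0.831 (limma's F test).

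Most members had lower means on pellets, as deposited, with none past the test. The median member difference of pellets was -0.15 against the chimpanzee diet, -0.10 against cafeteria meals and -0.16 against fast food, with 7, 13 and 7 of 86 above 0. Over all features these medians were -0.14, -0.12 and -0.16. Against fast food the members' medians were -0.14 in complex I, -0.25 in complex II, -0.19 in complex III, -0.22 in complex IV and -0.14 in complex V. Sdha differed by -0.25, Cox4i1 by -0.24, Atp5b by -0.22 and Ndufv1 by -0.16, none past the test. These directions turned with the scaling: after quantile normalization the medians over members were 0.05, 0.06 and 0.07, with 69, 66 and 69 of 86 above 0, and 0 passed. They turned too without the first pellet array of batch 2 (0.03, 0.07 and 0.02).

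**Figure D2:**
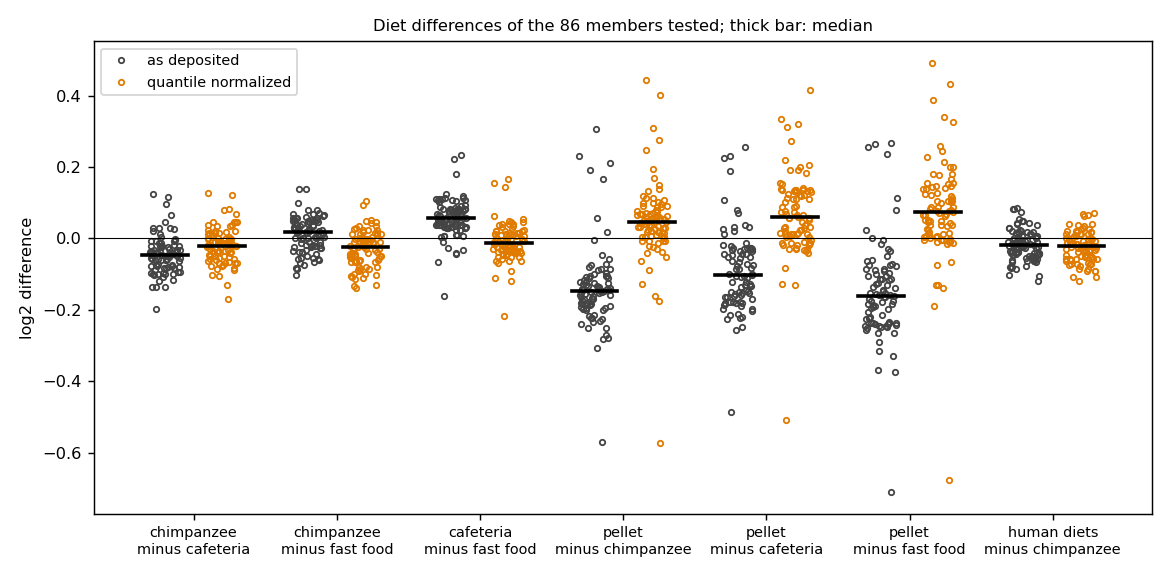
Log2 difference (vertical axis) of the 86 tested members in the 7 comparisons of diets (horizontal axis), as deposited (dark) and after quantile normalization (orange), 1 circle per member, with thick bars for medians. Medians of the pellet comparisons move from -0.15, -0.10 and -0.16 to 0.05, 0.06 and 0.07, while human diets minus chimpanzee stays at -0.02.

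As deposited, the pellet differences had opposite signs in the 2 batches. In batch 1 alone the members' medians were 0.38 against the chimpanzee diet, 0.37 against cafeteria meals and 0.29 against fast food, and 0 members passed. In batch 2 alone they were -0.68, -0.58 and -0.62, and 71, 47 and 52 of 86 members passed, of which 2, 1 and 1 were higher on pellets, beside 53%, 50.4% and 58.7% of all features. After quantile normalization batch 1 alone had medians of 0.00, -0.02 and -0.03 with 0, 2 and 0 members called, and batch 2 alone 0.07, 0.16 and 0.17 with 0, 3 and 8. The share of all features called is not given here for these normalized fits, so their counts cannot be read as particular to the members. The test of 4 diets in batch 2 alone called 39 members and 43.2% of all features. Human diets minus chimpanzee had a median of 0.04 in batch 1 and of -0.08 in batch 2, with 0 members called in either. In a two-way test of each feature, the interaction of diet and batch was looked at as well. It gave 48 of the 86 members (55.8%) an unadjusted p under 0.05, beside 56.5% of all features.

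**Figure D3:**
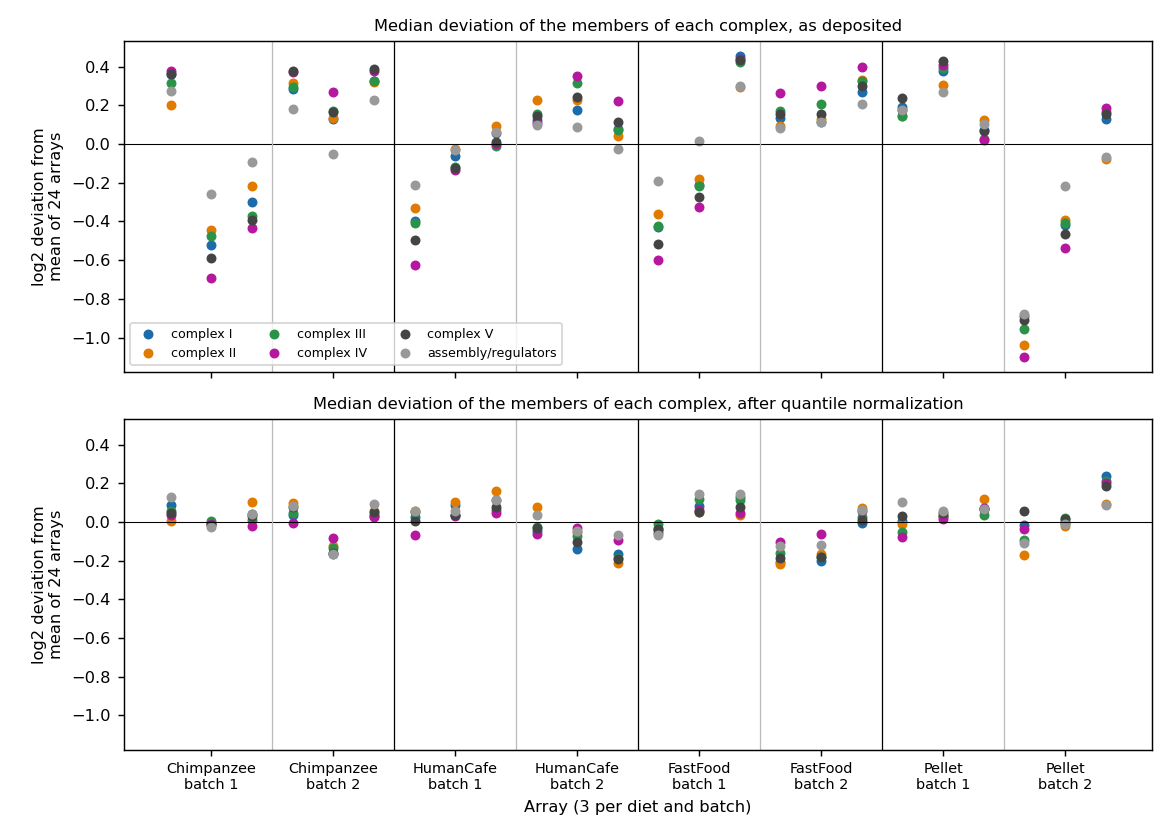
Median log2 deviation of the members of each complex from their own means over the 24 arrays (vertical axis), for each array by diet and batch (horizontal axis), as deposited (top) and after quantile normalization (bottom). The complexes move together from array to array, and on the first pellet array of batch 2 their medians lie between -1.10 and -0.88. After normalization the plotted medians lie between -0.22 and 0.24.

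The members' levels differed more between arrays of a diet than between the means of diets. The median deviation of the 86 members from their own means was 0.35, -0.53 and -0.32 on the 3 chimpanzee arrays of batch 1, and 0.31, 0.14 and 0.33 on those of batch 2. On the cafeteria diet it was -0.41, -0.09 and 0.01 in batch 1 and 0.13, 0.20 and 0.10 in batch 2. Fast food gave -0.46, -0.22 and 0.41 in batch 1 and 0.15, 0.14 and 0.29 in batch 2. Pellets gave 0.18, 0.38 and 0.06 in batch 1 and -0.92, -0.42 and 0.13 in batch 2. As deposited, batch 2 was thus positive on all 9 arrays of the 3 other diets and on 1 of 3 pellet arrays, whereas after quantile normalization 6 of those 9 arrays were negative and 2 of the 3 pellet arrays positive. The first pellet array of batch 2 was the lowest array for 78 of 86 members, including all 4 of complex II, all 9 of complex III and all 17 of complex V. The SD of a member over the 24 arrays had a median of 0.346 in complex I, 0.345 in complex II, 0.35 in complex III, 0.462 in complex IV and 0.379 in complex V. After quantile normalization the same medians were 0.136, 0.146, 0.124, 0.089 and 0.118, so that the median of complex IV went from the highest to the lowest of the 5. Its isoforms Cox8c (0.486), Cox6a2 (0.452) and Cox8b (0.360) then had SDs well above that median.

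On the chimpanzee, cafeteria and fast food diets, 31 of 86 members were higher in batch 2 than in batch 1 and 0 were lower, beside 28.1% of all features higher and 5.19% lower. The median member difference was 0.33 and 79 of 86 were above 0, beside a median of 0.14 over all features. Among the 1114 features whose mean log2 was 9 or higher, 68 of them members, the median was 0.49 and 77.3% passed in either direction. Complex IV had 9 of 13 tested members called and a median of 0.52, complex III 4 of 9 (0.39), complex V 9 of 17 (0.37), complex I 8 of 34 (0.29) and complex II 1 of 4 (0.28). Of the 9 assembly factors and regulators, 0 were called (0.17). The called members of complex IV had mean log2 levels of 10.96 to 11.83. Its uncalled members, Cox6a2, Cox6b2, Cox8b and Cox8c, had 4.36 to 6.11, and the assembly factors and regulators 5.14 to 9.44. Whether the complexes differ apart from level was not tested.

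Sdha had the largest difference in complex II and Atp5a1, the subunit that forms the head of the ATP synthase with Atp5b, in complex V. Sdha read between 9.36 and 9.98 (median of 9.50) on the 9 batch 1 arrays of the 3 diets and between 10.08 and 10.50 (10.30) on the 9 of batch 2. The 2 sets did not overlap, and the difference was 0.71 ± 0.10 (log2, SE, adjusted p = 0.00013). Atp5a1 read 10.36 to 11.21 (10.54) in batch 1 and 11.27 to 11.55 (11.41) in batch 2, again without overlap, a difference of 0.74 ± 0.12 (adjusted p = 0.000387). Ndufs1, the large iron-sulfur subunit of complex I, read 8.43 to 9.09 (8.67) and 9.20 to 9.39 (9.28), a difference of 0.56 ± 0.11 (adjusted p = 0.000952). In complex III the largest was Uqcrc2, with 9.59 to 10.66 (9.94) and 10.37 to 10.70 (10.57), which overlap, and a difference of 0.55 ± 0.13 (adjusted p = 0.00443). In complex IV it was Cox6a1, the form of subunit VIa in most tissues, whose promoter is printed above: 10.95 to 12.36 (11.43) and 11.91 to 12.31 (12.28), overlapping, a difference of 0.67 ± 0.19 (adjusted p = 0.0118). Other core subunits were also higher in batch 2, among them Atp5b by 0.67, Cox4i1 by 0.56, Cox5a by 0.54, Cyc1 by 0.44, Uqcrc1 by 0.40, Uqcrfs1 by 0.38 and Ndufv1 by 0.38. After quantile normalization none of these 7 passed, and Cox4i1, Cyc1, Uqcrc1, Uqcrfs1 and Ndufv1 had the opposite sign. Sdhb, the iron-sulfur subunit of complex II, differed by 0.32, Sdhc by 0.23 and Sdhd by 0.17, none past the test.

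The 3 genes for subunit c, the rotor of the ATP synthase, encode the same mature protein. Atp5g3 was higher in batch 2 by 0.56 ± 0.17 (adjusted p = 0.0139) and Atp5g1 by 0.40 ± 0.14 (adjusted p = 0.0289). Atp5g2, the third, read 9.15 to 10.06 (median of 9.53) in batch 1 and 9.46 to 9.67 (9.50) in batch 2, a difference of -0.03 ± 0.12 (adjusted p = 0.866). After quantile normalization Atp5g2 was lower in batch 2, with a difference of -0.46 ± 0.05 (adjusted p = 2.94e-05), while Atp5g1 and Atp5g3 differed by -0.05 and 0.00, neither past the test. The difference between the genes was not tested. The mean over the probe sets of Atp5g2, 3 in all, gave 0.00 as deposited.

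The direction of the batch difference of the family turned with the scaling. After quantile normalization 3 members were higher in batch 2 and 28 lower, beside 7.75% and 12.4% of all features, and the median over members was -0.14, beside -0.03 over all features. That scaling moved the median of all features by more than 0.1, from 0.14 to -0.03. Among the 1114 features whose mean log2 was 9 or higher, 239 were then higher and 191 lower, with a median of 0.02. The medians of complexes I to V were then -0.17, -0.15, -0.13, -0.06 and -0.13. The 3 members still higher were Sdha (0.24, adjusted p = 0.00226), Atp5a1 (0.21, adjusted p = 0.00827) and Ndufs1 (0.18, adjusted p = 0.00638), with the same sign under both scalings. A second probe set of Sdha gave 0.59 as deposited and 0.12 after normalization. The others of Atp5a1 gave 0.65 and 0.14, and, for one with a mean log2 of 5.32, -0.15 and -0.24. Of 43 members with several probe sets past the filter, all of a gene's probe sets shared a sign in 36 as deposited and in 33 after normalization. Sdhb (-0.17, adjusted p = 0.031) and Uqcrq, a small subunit of complex III (-0.21, adjusted p = 0.0247), were then lower in batch 2. In complex IV 0 of 13 passed after normalization.

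Counts of called members leaned on a few arrays. Without the first chimpanzee array of batch 1, 61 members passed on the 3 diets, without the third fast food array of batch 1 57, without the first pellet array of batch 2 52, and without the first 2 of these together 72. Over all 13838 features, 4609 passed with every array, and 5639, 5033, 6789 and 5977 in these settings. Without any other single array the count lay between 21 and 43, and all but 2 of the calls at most were higher in batch 2.

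**Figure D4:**
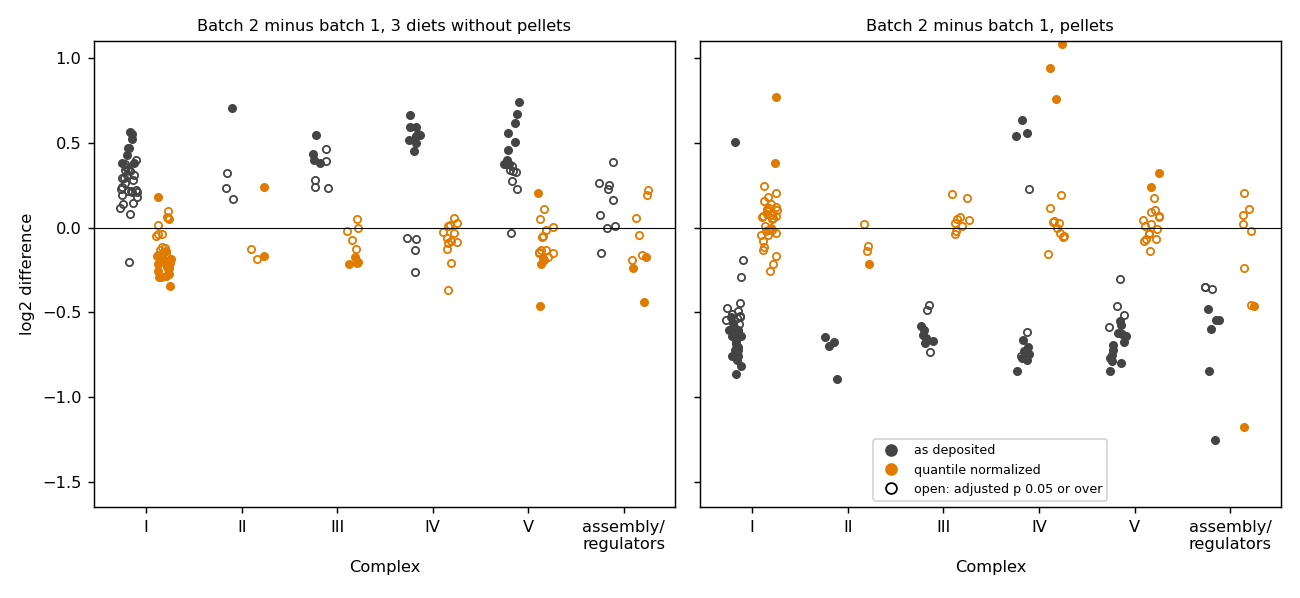
Log2 difference of batch 2 minus batch 1 (vertical axis) for each tested member by complex (horizontal axis), on the 3 diets without pellets (left) and on pellets (right), as deposited (dark) and after quantile normalization (orange). Filled circles passed at an adjusted p under 0.05: on the left 31 members lie higher as deposited, and 3 higher with 28 lower after normalization.

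On pellets, with the batch labels taken as given, the deposited batch difference ran the other way. The 18S ribosomal RNA control ran the other way on pellets too, from 4.96 to 5.51 in batch 1 and from 5.92 to 6.42 in batch 2, against 5.87 to 6.58 and 4.88 to 5.15 on the 3 other diets. Whether the pellet labels are exchanged was not settled by the sources used here, and an exchange would turn the sign of every batch difference on pellets. In the diet comparisons an exchange left 0 members called. Of the 86 members, 57 were lower in batch 2 and 4 higher, beside 51.2% and 11.3% of all features, with a median of -0.63 over members and -0.42 over all features. Among the 1114 features whose mean log2 was 9 or higher, 68 of them members, the median was -0.72 and 88.1% passed in either direction. Sdha read 10.24, 10.31 and 10.07 in batch 1 and 8.90, 9.45 and 9.58 in batch 2, a difference of -0.89 ± 0.18 (adjusted p = 0.00281). Cox4i1 read 11.75, 11.94 and 11.53 in batch 1 and 10.41, 10.91 and 11.55 in batch 2, where the third array lay within the range of batch 1 (-0.78 ± 0.29, adjusted p = 0.0255). Medians over members were -0.61 in complex I, -0.68 in complex II, -0.63 in complex III, -0.70 in complex IV and -0.64 in complex V. After quantile normalization the counts were 7 higher and 3 lower, beside 18.8% and 19.5%, and the median 0.03. Of the 1114 features of mean log2 9 or higher, 41 were then higher and 117 lower, with a median of -0.06. The 3 members that were lower were Sdha (-0.22, adjusted p = 0.0462), Ndufaf1 (-1.18, adjusted p = 0.026) and Ndufaf5, another assembly factor of complex I (-0.46, adjusted p = 0.0323), the last named after its values were seen. Without the first pellet array of batch 2, 5 members passed as deposited, all lower, with a median of -0.38. Without the first or second pellet array of batch 1, 27 and 15 passed. The shares of all features called without these arrays are not given here.

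With the same reserve about the labels, the batch difference on pellets differed from that on the other diets for 80 of 86 members, 75 lower and 5 higher, beside 55.6% and 13.7% of all features. The median of this difference was -0.97 over members and -0.55 over all features, and by complex -0.88, -0.95, -1.05, -1.21 and -1.03 for I to V. Among the 1114 features whose mean log2 was 9 or higher, 68 of them members, the median was -1.21 and 97.2% passed in either direction. Among the members the difference was largest in size for Ndufaf1 (-1.64), Sdha (-1.60) and Atp5a1 (-1.59). After quantile normalization 26 were higher and 5 lower, beside 26.2% and 25.7%, with a median of 0.15. Of the 1114 features of mean log2 9 or higher, 162 were then higher and 297 lower, with a median of -0.08. Sdha (-0.45), Atp5a1 (-0.35), Ndufs1 (-0.35) and Ndufaf1 (-1.40) stayed lower under both scalings.

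A few members ran against most of the family. As deposited, 5 members had a higher batch difference on pellets than on the other diets, beside 13.7% of all features. They were Cox6a2, Cox8b, Cox8c, Cox6b2 and Ndufa4l2, of which Cox8c and Cox6b2 were named after their values were seen. Cox6a2, the heart and muscle form of subunit VIa, read 5.24 to 5.84 (median of 5.67) on the 9 batch 1 arrays of the 3 diets and 5.09 to 5.54 (5.42) on the 9 of batch 2, a difference of -0.26 ± 0.11 that missed the test (adjusted p = 0.0641). On pellets it read 5.36, 5.63 and 5.38 in batch 1 and 6.54, 5.58 and 5.92 in batch 2, a difference of 0.56 ± 0.19 (adjusted p = 0.0167). The highest value was on the first pellet array of batch 2, on which most other members were lowest. That array's median over all probe sets was 4.32, against 4.02 to 4.135 on the others. The part of this shift in the values of dim members was not tested. Cox8b, the muscle form of subunit VIII, was higher by 0.54 (adjusted p = 0.0233) and Cox8c by 0.64 (adjusted p = 0.0153) in batch 2 on pellets, and Ndufa4l2 by 0.51 (adjusted p = 0.049). Cox6b2 differed by 0.23 and missed the test (adjusted p = 0.109). Over all features, 11.3% were called higher in batch 2 on pellets. After quantile normalization Cox6a2 (0.94), Cox8c (1.09), Cox8b (0.76) and Ndufa4l2 (0.77) were higher on pellets in batch 2 as well, beside 18.8% of all features. Without the first pellet array of batch 2, 0 members passed as higher on pellets as deposited, and 1 had a higher batch difference there than on the other diets. Their mean log2 levels were 5.55 for Cox6a2, 4.77 for Cox8b, 6.11 for Cox8c, 4.36 for Cox6b2 and 4.87 for Ndufa4l2, against a median of 4.07 over all probe sets. Other isoforms were not tested: Cox7b2 of testis had means of 2.97 in batch 1 and 2.80 in batch 2 on pellets. Cox4i2, the lung form of subunit IV, and Cox7a1, the muscle form of subunit VIIa, were below the filter, with 3.68 ± 0.10 and 3.92 ± 0.09 on the chimpanzee diet and 3.72 ± 0.23 and 4.05 ± 0.28 on pellets (SD, n = 6).

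**Figure D5:**
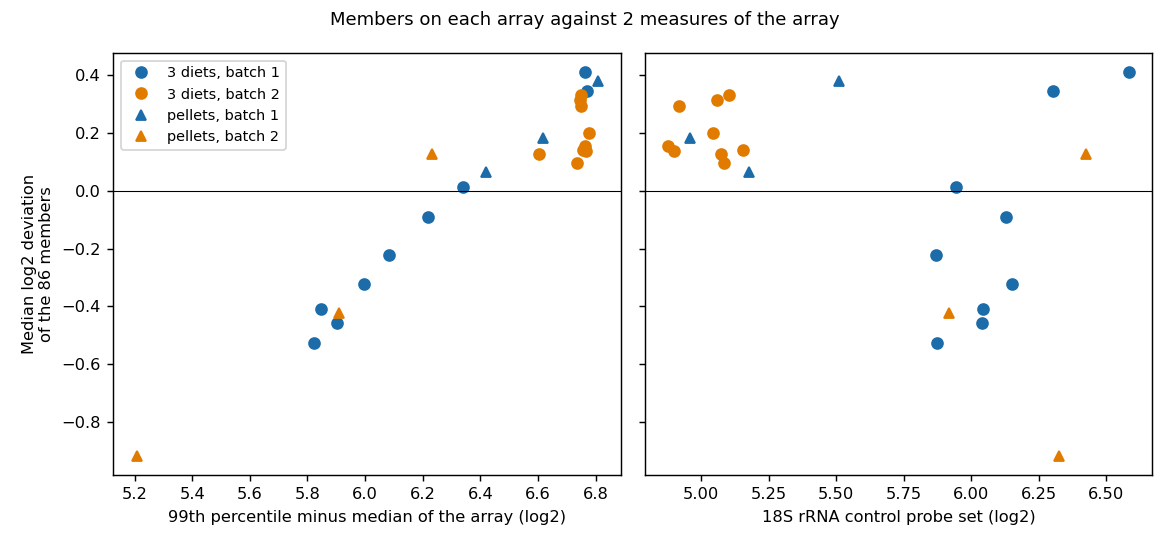
Median log2 deviation of the 86 members on each array (vertical axis) against the distance from the array's median to its top percentile (left) and its 18S rRNA control probe set (right), with circles for the 3 diets and triangles for pellets, blue for batch 1 and orange for batch 2. On the left the 2 arrays of wide range in batch 1 lie among those of batch 2, and the first pellet array of batch 2 lies lowest at a range of 5.21.

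Measures of the whole array moved with these differences, and their part in them was not tested. The distance from an array's median to the value that the brightest 1% of its probe sets exceed was 5.82 to 6.77 (median of 6.08) on batch 1 and 6.60 to 6.78 (6.75) on batch 2 of the 3 diets, and 6.42, 6.62 and 6.81 on batch 1 and 5.21, 5.91 and 6.23 on batch 2 of pellets. The 2 arrays of batch 1 with the widest range among the 3 diets, the first chimpanzee and the third fast food array, had 83 members each above their own means. The 18S ribosomal RNA control read 5.87 to 6.58 on batch 1 and 4.88 to 5.15 on batch 2 of the 3 diets, and 4.96 to 5.51 and 5.92 to 6.42 on pellets. The 2 wide-range arrays read 6.30 and 6.58 there, at the upper end of their batch. The 3′ minus 5′ difference of Actb, a sign of RNA quality, was 0.37 to 0.68 over all arrays, with medians of 0.49 and 0.48 in the 2 batches of the 3 diets. The first pellet array of batch 2 had a median correlation of 0.893 with the other arrays, against 0.98 or more for the rest.

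Markers of brain cells moved with the arrays as well, and their part was likewise not tested. The mean of 12 neuronal markers was 9.38 to 10.25 (median of 9.68) on batch 1 and 10.06 to 10.37 (10.26) on batch 2 of the 3 diets, and 9.90 to 10.24 and 8.87 to 9.78 on pellets. That of 8 astrocyte markers went from 8.63 to 9.16, and that of 7 oligodendrocyte markers from 8.97 to 9.57, as medians of the same batches. Median differences between batches on the 3 diets were 0.55 for tested neuronal, 0.44 for astrocyte, 0.47 for oligodendrocyte, 0.11 for microglial, 0.20 for endothelial and 0.06 for choroid plexus and ependymal markers, and after quantile normalization 0.08, 0.06, 0.15, -0.11, 0.01 and -0.04. Of a list of 7 red blood cell genes 4 were read, with means over the list of 3.63 to 4.58. Only Alas2 reached the filter, while Hba-a1 (mean log2 of 3.18), Hba-a2 (3.455) and Slc4a1 (3.50) lay below it. Alas2 differed by 0.72 for pellets against fast food and by 0.02 for pellets against cafeteria meals, neither past the test. This list therefore cannot show whether the content of blood differed between arrays. The list means of neuronal and glial markers were well above the median of all probe sets. In RNA of whole tissue, fewer cells of a type and less RNA per cell cannot be told apart.

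Lists of neighbouring genes were described beside the family. On the 3 diets, 14 of 16 measured genes of the citric acid cycle were higher in batch 2 and 0 lower (median of 0.49), as were 9 of 13 carriers of electrons and substrates (0.54), beside 28.1% of all features higher. Among the 1114 features whose mean log2 was 9 or higher, 850 were higher and 11 lower (0.49). Several genes of both lists reach that level, such as Mdh2 (11.1) and Vdac1 (11.5), so these counts cannot be read as particular to the lists. Of 33 assembly factors outside the symbol rule 6 were higher and 1 lower (0.14), and of 39 mitochondrial ribosomal proteins 8 were higher and 1 lower (0.14). Among 12 regulators of mitochondrial biogenesis 4 were higher and 1 lower (0.14). After quantile normalization the citric acid cycle kept a positive median (0.11, with 5 higher and 0 lower) and the carriers had 0.06 (2 higher, 2 lower), while the ribosomal proteins had -0.13 (0 higher, 13 lower), close to the -0.14 of the family. In the comparison of human diets with the chimpanzee diet 0 genes of the 5 lists passed, with medians from -0.02 to 0.01.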

How the data were processed

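Gene expression was measured on 24 Affymetrix arrays. The deposited values are log2 expression levels that the authors computed with the "rma" method, stated to include quantile normalization, although array SDs in the deposited table lie between 1.58 and 2.06. The methods leave out 1 pellet brain for degraded RNA, which no source used here names, so all 24 arrays were kept and every pellet value may hold it. After 64 control probe sets and 932 with several genes were set aside, the probe set with the highest mean was kept per gene. Each of 9160 probe sets with no gene listed stood as a feature of its own. The 13838 features that reached a mean log2 of 4.07 were tested, so shares over all features cover genes and such probe sets.

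Diets were compared in limma 3.58.1 (R 4.3.3), batch being a term of the model, and batches with a term for each diet and batch, at a Benjamini-Hochberg adjusted p of 0.05 over all features. The fits were tested on simulated data with independent noise and no batch difference on pellets. The arrays here shift together and the batches differ on pellets, so that test does not give the power of the diet comparisons. Members and lists were chosen with earlier results of these data known. Named members are preset core subunits, the largest and smallest batch difference and the smallest p over 4 diets in each complex. The interaction of diet and batch was tested with the methods' two-way test. Alternatives covered filter, probe set choice, scaling, weights, spread, batch term, arrays and a replicate block. Promoters came from RefSeq (GRCm38.p6). Figures were drawn with matplotlib. The number of arrays limits the precision.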

Additional observations from a re-analysis of the deposited data

Results flagged for a closer look

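Of 108 sets of 6 arrays (27 named members on 4 diets), 1 held an array whose gap to its nearest neighbour, over the range of the set, was past Dixon's critical value, which by its level flags about 1 set in 20. Sdhb read 9.77 on the first cafeteria array of batch 1, and 10.18 or more on the other 5 cafeteria arrays.

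With the batch labels taken as given, the batch difference on pellets differed from that on the other diets for 80 members, as tested in limma, with 24 of the 27 named members among them. Beside these, 55.6% of all features were called lower and 13.7% higher, and 97.2% of those whose mean log2 was 9 or higher were called in either direction. The tested value is the log2 batch difference on pellets minus that on the other 3 diets. It was Sdha -1.60, Atp5a1 -1.59, Atp5b -1.46, Cox6a1 -1.42, Cox5a -1.39, Atp5pb -1.39, Atp5g3 -1.36, Cox4i1 -1.34, Ndufs1 -1.32, Cox7a2 -1.27, Uqcrc2 -1.18, Cox8a -1.12, Uqcrfs1 -1.06, Uqcrc1 -1.05, Ndufv1 -1.05, Cyc1 -1.04, Atp5g1 -1.03, Sdhb -0.97, Sdhc -0.93, Sdhd -0.84 and Uqcrq -0.81. It was positive for Cox6a2 0.82, Cox8b 0.61 and Ndufa4l2 0.71. Of the named members it missed the test for Atp5g2, and Cox4i2 and Cox7a1 were below the filter.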

How the results depend on the processing

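Of 1043 values recomputed for named members, 926 kept their direction and their side of the threshold, 33 no longer passed, 26 newly passed and 58 turned; the cause was not tested. The number of arrays and their signal over background limit all of these.

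In the diet comparisons, array weights gave 1 (4 diets), 4 (pellet against chimpanzee), 7 (pellet against cafeteria) and 1 (pellet against fast food) called members, and batch 2 alone gave 39, 71, 47 and 52. With quantile normalization, pellet against cafeteria had 2 in batch 1 alone and 3 in batch 2 alone, and pellet against fast food 8 in batch 2 alone. On the 3 diets the 31 batch calls became 79 with array weights, 72 without the 2 wide-range arrays of batch 1, and 21 to 61 without single arrays. On pellets 61 calls became 15 with array weights, 10 with quantile normalization, 1 with quantile normalization and without the first pellet array of batch 2, and 5 to 81 without single arrays. The 80 calls of pellets against the other diets became 31 with quantile normalization, 28 when that array was also left out, and 55 to 81 without single arrays. All of these are counts of members. For array weights and for most settings without an array the share over all features is not given here, so the changes cannot be read as particular to the family.

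A replicate block gave 33, 61 and 79 batch calls and 0 in the diet comparisons. The paper states that littermates were spread evenly over the diet groups, and no source used here links the replicate numbers to litters. Same-numbered arrays had correlations of deviations from -0.51 to 0.48, with medians per batch and number from -0.24 to 0.22. These values cannot settle whether the numbers mark a pairing, which was not tested.

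Batch differences on the 3 diets that turned with quantile normalization, with or without that array, were Ndufv1 -0.037, Sdhb -0.17, Uqcrc1 -0.021, Uqcrfs1 -0.072, Cyc1 -0.0036, Cox4i1 -0.03, Cox7a2 -0.027, Cox8a -0.079, Atp5g1 -0.051, Sdhd -0.19, Sdhc -0.12 and Uqcrq -0.21. The mean of all probe sets turned Uqcrq (-0.042) and Atp5g2 (0.0031). Atp5g2 also turned with array weights (0.031), without the wide-range arrays (0.13) and without single arrays (-0.087 to 0.054).

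For pellets against fast food, Ndufv1 turned with the mean of probe sets (0.0052). With quantile normalization Ndufv1 gave 0.087, Cox4i1 0.011 and Atp5b 0.050, also with the pellet batch labels exchanged. With array weights Ndufv1 gave 0.31, Sdha 0.47, Cox4i1 0.35 and Atp5b 0.39, and in batch 1 alone 0.35, 0.60, 0.39 and 0.49. With quantile normalization in batch 1 alone these genes gave 0.089, 0.28, 0.0094 and 0.089, and in batch 2 alone Ndufv1 gave 0.084, Cox4i1 0.013 and Atp5b 0.011. With quantile normalization and without the first pellet array of batch 2 they gave 0.10, 0.032, 0.018 and 0.078. Without single arrays Ndufv1 lay between -0.27 and 0.017 and Atp5b between -0.39 and 0.022.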
